A study of Homo sapiens with 8 samples.

Results

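GAS5 and 9 other non-coding small nucleolar RNA (snoRNA) host genes were followed across 8 RNA-Seq libraries of cholangiocarcinoma (CCA) cells. The 10 genes, GAS5, ZFAS1, SNHG1, SNHG5, SNHG6, SNHG7, SNHG8, SNHG12, SNHG15 and SNHG16, were taken by symbol, and all 10 were found among the 56269 genes of each deposited table. The libraries came from the CCA cell lines SNU1079 and SSP25, both labelled wild type, after 48 h of treatment. The paper that reported these data found IDH1 and ARID1A mutations in SNU1079. Each line was given BETp + mTORi, mTORi alone, BETp alone or vehicle (DMSO), with 1 library per line and treatment. BETp is ARV825 (40 nM), a degrader that joins BET bromodomain proteins to the ubiquitin ligase cereblon, and mTORi is AZD8055 (50 nM), an ATP-competitive inhibitor of the mTOR kinase. The labels give no separate doses for the combination.

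snoRNAs guide chemical modification of ribosomal RNA: box C/D snoRNAs direct ribose methylation and box H/ACA snoRNAs direct pseudouridylation. In mammals most are cut out of the introns of a host transcript. In the hosts studied here the exons that remain are spliced, exported and engaged by ribosomes, but most open with a short reading frame, and many are degraded by nonsense-mediated decay (NMD), which needs ongoing translation. GAS5, for growth arrest-specific transcript 5, is known to accumulate in arrested cells and when translation is blocked. GAS5 and several others also belong to the 5′-terminal oligopyrimidine (5′TOP) class, as do ribosomal protein genes: their RNAs start with a C followed by a run of pyrimidines, and translation of such RNAs is controlled by mTOR.

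In GENCODE 44 on GRCh37, the canonical transcripts had between 3 and 12 exons, with 12 in GAS5 and 11 in SNHG1. The reading frame opened by the first ATG held between 3 codons in SNHG15 and 67 codons in SNHG7, and it held 50 codons in GAS5 and 12 in SNHG5. The longest frame opened by any ATG was longer in some members, between 45 codons in SNHG6 and 181 in SNHG7, with 98 in SNHG15 and 96 in ZFAS1. In all 10, at least 1 exon junction lay more than 50 bases after the stop codon of the frame opened by the first ATG. This arrangement marks a transcript for NMD, and there were 5 such junctions in GAS5, 5 in SNHG5 and 7 in SNHG1. Junctions after the stop codon of the longest frame were not counted. RefSeq places 37 snoRNAs within the intervals of the 10 genes, 11 of them in GAS5, 9 in SNHG1, 4 in SNHG12, 3 each in ZFAS1 and SNHG16, 2 each in SNHG5 and SNHG7, and 1 each in SNHG6, SNHG8 and SNHG15.

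The letters around the annotated starts are shown because a pyrimidine start is what the hosts and the ribosomal protein genes, which are compared below, may have in common. The run searched for was a C followed by at least 4 bases that are each C or T, on the sense strand, beginning within 10 bases of the annotated start. RefSeq promoters (GRCh38.p14) were at hand for 8 of the 10 genes, all but SNHG6 and SNHG15. Of these 8, 6 held such a run (75.0%), as did 65 of 78 promoters of ribosomal protein genes (83.3%) and 33.5% of all 35116 promoters. Among promoters of the other snoRNA hosts listed further below, 7 of 11 non-coding hosts (63.6%) and 16 of 41 protein-coding hosts (39.0%) held it. Each window runs from 20 bases before the start through 30 bases from it, 5′ to 3′, with the run in capitals, and was placed on GRCh37 by exact match. The windows are SNHG5 at chr6:86388422-86388471 (minus strand), ZFAS1 at chr20:47895159-47895208 (plus), SNHG8 at chr4:119199897-119199946 (plus), SNHG16 at chr17:74553826-74553875 (plus) and SNHG1, with no run, at chr11:62623328-62623377 (minus).
SNHG5: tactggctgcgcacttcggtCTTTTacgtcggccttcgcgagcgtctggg
ZFAS1: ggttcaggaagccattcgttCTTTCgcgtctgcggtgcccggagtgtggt
SNHG8: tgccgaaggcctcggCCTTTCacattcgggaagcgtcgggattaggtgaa
SNHG16: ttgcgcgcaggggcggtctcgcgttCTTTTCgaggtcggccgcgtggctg
SNHG1: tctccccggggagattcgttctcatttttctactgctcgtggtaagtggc

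GAS5 held no run at its RefSeq start, which lies upstream of the start of the GENCODE canonical transcript. The window around the GENCODE start, chr1:173837098-173837147 on the minus strand, has a C exactly at the start.
GAS5: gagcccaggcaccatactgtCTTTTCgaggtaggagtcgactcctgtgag
At the GENCODE starts the same search found a run in 7 of the 8 genes, all but SNHG5, and in 30.4% of 55049 canonical transcripts. The result for a single gene thus turned on which start was used. CACGTG, the E-box read by MYC, was present in the 300-base RefSeq window (either strand) of SNHG7 and of none of the other 7, against 7.26% of all promoters.

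Levels are given as TPM, a share of a library's transcripts scaled per length, which can be compared between genes. SNHG5, the host of the U50 snoRNAs, was the most abundant of the 10 in all 8 libraries. It measured 783.28, 937.12, 634.99 and 808.57 TPM in the BETp + mTORi, mTORi, BETp and vehicle libraries of SNU1079. In SSP25, in the same treatment order, it measured 656.83, 802.84, 603.47 and 741.72 TPM. In both lines the mTORi library was the highest and the BETp library the lowest.

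GAS5 stood close to ZFAS1, with the order of these genes changing between libraries. GAS5 measured 712.64, 761.99, 456.95 and 566.34 TPM in SNU1079, again from BETp + mTORi and mTORi through BETp to vehicle, and 286.14, 331.5, 199.97 and 279.55 TPM in SSP25. In each line both libraries with mTORi lay above both without it. ZFAS1, which starts near ZNFX1 of the other strand and hosts the SNORD12 family, measured 576.49, 644.71, 489.53 and 634.1 TPM in SNU1079 and 232.79, 274.37, 174.83 and 267.2 TPM in SSP25. Its mTORi and vehicle libraries lay close together and its BETp library was the lowest of each line.

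A gap separated these 3 from the rest. SNHG6 (101.32 to 151.33 TPM) was above SNHG8 (74.25 to 141.4 TPM) in each of the 8 libraries, but their ranges overlapped. SNHG16 (57.65 to 108.25 TPM), SNHG7 (48.93 to 77.39 TPM) and SNHG1 (32.7 to 90.62 TPM) overlapped one another and changed order between the lines. SNHG12 (19.97 to 26.6 TPM) and SNHG15 (11.54 to 46.03 TPM) were the least abundant, SNHG12 being the lower of them in SNU1079 and SNHG15 in SSP25. Together the 10 genes held between 0.136% and 0.295% of a library's TPM.

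**Figure D1:**
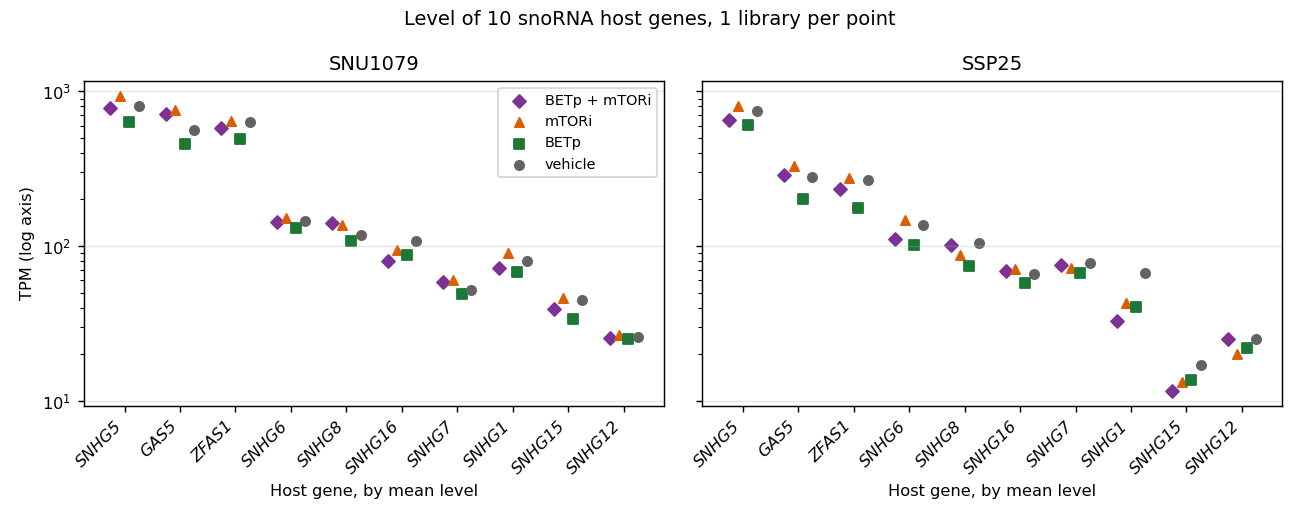
TPM (log axis) of each of the 10 host genes in SNU1079 (left) and SSP25 (right), with 1 point per library, colored by treatment and ordered by mean level. SNHG5, GAS5 and ZFAS1 lie at 174.83 TPM or above in every library, and the other 7 at 151.33 TPM or below.

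Both lines carried the keratins of bile duct epithelium, with KRT19 between 306.88 and 1927.41 TPM, while EPCAM was between 59.73 and 101.17 TPM in SNU1079 and only 0.9 to 1.74 TPM in SSP25. SOX9, another bile duct marker, was between 5.72 and 28.62 TPM. Of the hepatocyte markers, ALB and APOA1 did not exceed 0.21 and 0.11 TPM, while TTR and CYP3A4 reached 2.23 and 1.31 TPM in SNU1079. The leukocyte markers PTPRC and CD3E did not exceed 0.24 and 0.08 TPM. COL1A1 reached 1002.53 TPM in SNU1079 but 2.16 TPM in SSP25, and CD68 lay between 76.39 and 209.54 TPM in all libraries. Ribosomal protein genes held 11.9% to 22.1% of TPM and mitochondrial genome transcripts 5.99% to 19.2%, and the mitochondrial share was higher in every treated library than in the vehicle library of its line. Because TPM are shares of a library, these large groups move the values of all other genes, and results without them are given where they bear on a call. The number of reads is unknown, since TPM keep no depth.

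The effect of mTORi was tested over 4 libraries with mTORi and 4 without, adjusting for cell line and BETp. The test was limma on log2(TPM + 1), two-sided, with Benjamini-Hochberg adjustment over 16060 genes. GAS5 rose by 0.46 ± 0.07 (log2 difference ± SE; 95% CI 0.28 to 0.63; fold of 1.37 on the log2(TPM + 1) scale; adjusted p = 0.0433). It was the only one of the 10 past an adjusted p of 0.05, where 1.05% of all genes tested passed in either direction, 0.162% as higher and 0.884% as lower. In 4 of 4 matched pairs of libraries, formed within a line at the same BETp status, GAS5 was higher with mTORi. The differences were 0.64 with BETp and 0.43 without it in SNU1079, and 0.51 with BETp and 0.25 without it in SSP25.

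The GAS5 call was lost when any 1 of the 8 libraries was left out, with adjusted p between 0.0892 and 0.167 and a log2 difference between 0.39 and 0.53. Over all genes 168 were called with the 8 libraries and between 1 and 7 with any 1 left out. In bulk RNA, more cells that express a gene and more of its RNA per cell cannot be told apart.

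The other members did not pass. SNHG5 was 0.19 ± 0.05 higher with mTORi (adjusted p = 0.105), SNHG8 0.20 ± 0.11 (adjusted p = 0.335), ZFAS1 0.18 ± 0.08 (adjusted p = 0.242), SNHG7 0.14 ± 0.08 (adjusted p = 0.335) and SNHG6 0.11 ± 0.08 (adjusted p = 0.428) on the log2 scale in the limma fit. SNHG16, SNHG12, SNHG15 and SNHG1 had differences of 0.01, -0.02, -0.08 and -0.16. Of these, SNHG12 and SNHG15 changed sign under quantile normalization, and SNHG12 also when TPM were rescaled without mitochondrial genome transcripts or without ribosomal protein genes. GAS5, SNHG5, ZFAS1 and SNHG6 were higher in all 4 pairs, a pattern shown by 4.59% of all genes tested, and no member was lower in all 4. The median of the 10 was 0.122, beside -0.114 over all genes and 0.206 over 79 ribosomal protein genes.

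**Figure D2:**
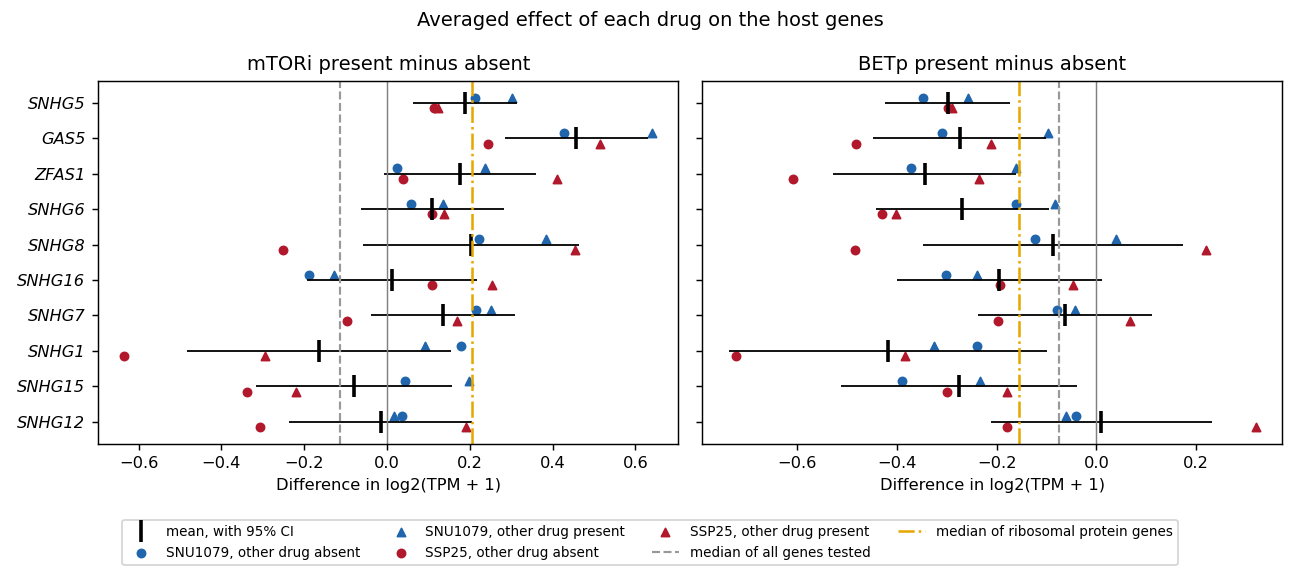
Difference in log2(TPM + 1) with mTORi present minus absent (left) and BETp present minus absent (right) for each host gene. Black ticks are limma means with 95% CI (n = 4 libraries a side), points are the 4 matched library pairs, the dashed line is the median of all genes tested and the dash-dotted line the median of ribosomal protein genes. With mTORi, GAS5 lies furthest to the right at 0.46. With BETp, 9 of the 10 means lie left of 0.

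Ribosomal protein genes, with a pyrimidine run at the start in 83.3% of their promoters, were read beside the members. Of the 26 genes called higher with mTORi, 13 encoded ribosomal proteins, and the largest of these differences was 0.36 in RPL23, below the 0.46 of GAS5. Of all 79 ribosomal protein genes, 76 were higher and 3 lower with mTORi (65 and 14 under quantile normalization), with 13 called higher. Relative to the summed TPM of these genes, GAS5 was still higher with mTORi in 4 of 4 pairs, by a mean of 0.25 on the log2 scale. The same ratio for SNHG5 had a mean of -0.02 and was higher in 2 of 4 pairs, and for ZFAS1 a mean of -0.03 and higher in 1 of 4. In all, 9 of the 10 members had a negative mean of this ratio, down to -0.22 in SNHG12, -0.28 in SNHG15 and -0.37 in SNHG1. When TPM were rescaled without ribosomal protein genes, the GAS5 difference was 0.50 (adjusted p = 0.059), and without mitochondrial genome transcripts it was 0.49 (adjusted p = 0.0579).

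BETp had the opposite direction for most members. SNHG5 fell by 0.30 ± 0.05 on the log2 scale (95% CI -0.42 to -0.17; fold of 0.813; limma adjusted p = 0.0443), comparing 4 libraries with BETp and 4 without. It was the only member past the threshold, where 1.82% of all genes passed in either direction, 0.461% as higher and 1.36% as lower. The 4 pair differences of SNHG5 were -0.26 with mTORi and -0.35 without it in SNU1079, and -0.29 with mTORi and -0.30 without it in SSP25. The call was lost when any 1 library was left out (adjusted p between 0.0668 and 0.119), with a log2 difference between -0.33 and -0.27. The count over all genes, 292, was then between 37 and 227.

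SNHG1 had the largest mean difference of the 10, -0.42 ± 0.14 (adjusted p = 0.138 by limma). SNHG5, given above, lay between ZFAS1 and SNHG15 in size. The other values were ZFAS1 at -0.34 ± 0.08 (adjusted p = 0.0677), SNHG15 at -0.28 ± 0.10 (adjusted p = 0.17), GAS5 at -0.27 ± 0.07 (adjusted p = 0.0967), SNHG6 at -0.27 ± 0.08 (adjusted p = 0.101) and SNHG16 at -0.20 ± 0.09 (adjusted p = 0.239), none of which passed. SNHG8, SNHG7 and SNHG12 had differences of -0.09, -0.06 and 0.01, and the last of these was -0.01 when TPM were rescaled without ribosomal protein genes, while SNHG7 was 0.02 under quantile normalization. In all, 9 of 10 were lower and 7 were lower in all 4 pairs, against 23.2% of all genes tested. The median was -0.272, beside -0.076 over all genes and -0.156 over the ribosomal protein genes, of which 70 of 79 were lower (64 under quantile normalization) and RPL21 and RPL6 were called lower.

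**Figure D3:**
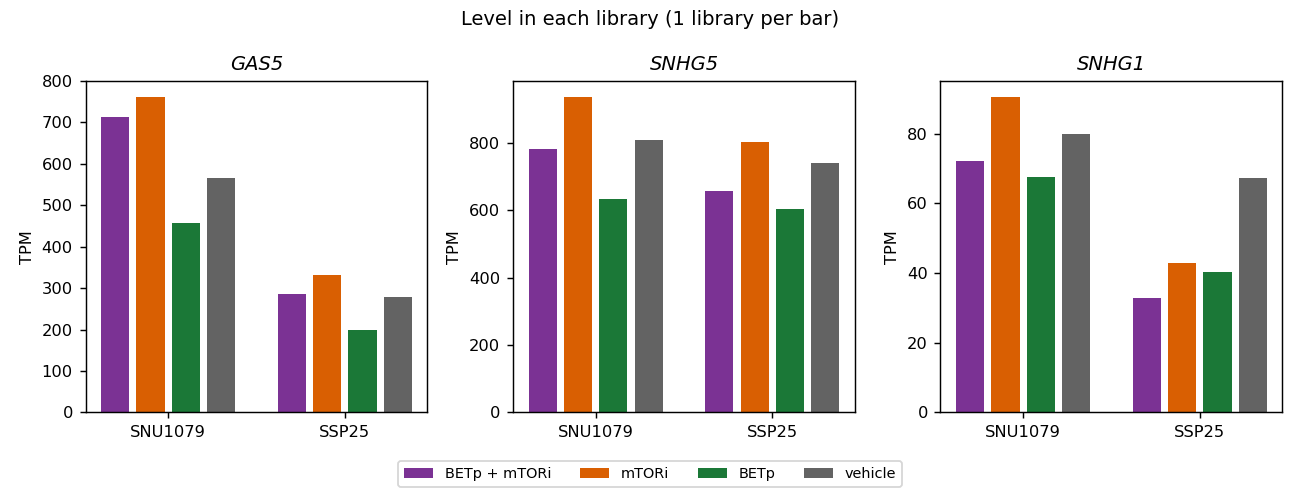
TPM of GAS5, SNHG5 and SNHG1 in each library, with 1 bar per library, grouped by cell line and colored by treatment. GAS5 is higher in both libraries with mTORi than in both without it in each line, SNHG5 is lowest with BETp alone in each line, and SNHG1 is 67.29 TPM in the SSP25 vehicle library and at most 43.0 TPM in the treated SSP25 libraries.

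When single treatments were compared, with 2 libraries each and all 8 sharing an estimate of the spread, no member passed in any comparison. For BETp + mTORi against vehicle, 0 members were called by limma, where 1.81% of all genes were called, 0.293% as higher and 1.52% as lower. At an unadjusted p under 0.05 there was 1 member of 10, beside 25.8% of all genes. GAS5 was 0.18 ± 0.10 higher (adjusted p = 0.281), being 712.64 TPM with the combination and 566.34 TPM with vehicle in SNU1079, and 286.14 and 279.55 TPM in SSP25. SNHG1 had the most negative value, -0.58 ± 0.21 (adjusted p = 0.141), with -0.15 in SNU1079 and -1.02 in SSP25. The median of the 10 was -0.135, with 3 higher and 7 lower, beside -0.19 over all genes. Under quantile normalization it was 0.052, with 6 higher and 4 lower, beside 0.001 over all genes.

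For mTORi against vehicle, 0 members were called and 1 (GAS5, 0.34 ± 0.10) had an unadjusted p under 0.05 (10.3% of all genes), where 0.0125% of all genes were called. For BETp against vehicle all 10 values were negative, from -0.49 in ZFAS1 to -0.11 in SNHG12, with 0 called by limma, 4 with an unadjusted p under 0.05 (8.9% of all genes) and 0.00623% of all genes called. These contrasts share their vehicle libraries. For BETp + mTORi against BETp, 0 members and 0% of all genes were called and 4 members had an unadjusted p under 0.05 (11.5% of all genes), led by GAS5 at 0.58 ± 0.10. For BETp + mTORi against mTORi, 0 members were called, 1 (SNHG5, -0.27 ± 0.09) had an unadjusted p under 0.05 (13.4% of all genes), and 0.0125% of all genes were called.

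The departure from additivity, the combination minus the sum of the single-drug effects, was positive in all 10, also under quantile normalization, between 0.05 in SNHG5 and 0.43 ± 0.18 in SNHG8, with a median of 0.144 beside -0.008 over all genes. With any 1 library left out it was positive in 7 to 9 of the 10, the 7 without the SNU1079 BETp + mTORi library, and the median lay between 0.089 and 0.285. Of the 79 ribosomal protein genes, 60 had a positive departure and 19 a negative one, with a median of 0.043. All of these values share the same 8 libraries. No member and 0% of all genes were called by limma, and only SNHG8 had an unadjusted p under 0.05 (0.0488, adjusted p = 1), beside 2% of all genes. SNHG8, which hosts SNORA24, measured 141.4, 137.66, 108.06 and 117.79 TPM in SNU1079 and 102.09, 87.48, 74.25 and 104.33 TPM in SSP25 (BETp + mTORi, mTORi, BETp, vehicle). In SSP25 both single drugs lay below vehicle and the combination lay near it.

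Between the lines, SNU1079 was higher than SSP25 for 7 members and lower for 1, where 38.2% of all genes were called higher and 35.8% lower, 74% in all. SNHG15 (1.5 ± 0.11), ZFAS1 (1.31 ± 0.07) and GAS5 (1.18 ± 0.07) had the largest log2 differences, and SNHG1, SNHG16, SNHG8 and SNHG5 followed at 0.79, 0.48, 0.46 and 0.17. SNHG7, the host of SNORA17A and SNORA17B, was 0.41 ± 0.08 lower in SNU1079, at 48.93 to 60.24 TPM, against 67.33 to 77.39 TPM in SSP25. SNHG6 (0.21, limma adjusted p = 0.0545) and SNHG12 (0.16, adjusted p = 0.159) did not pass. The values of each line come from a table of its own, and each line was sampled once per treatment, so line and table cannot be told apart.

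The drug effects were also compared between the lines. SNHG1, the host of SNORD22 and SNORD25 to SNORD31, measured 72.12, 90.62, 67.58 and 79.96 TPM in SNU1079 (BETp + mTORi, mTORi, BETp, vehicle). In SSP25 it measured 32.7, 43.0, 40.37 and 67.29 TPM, the vehicle library standing above the 3 treated ones. The mTORi effect of SNHG1 was 0.14 in SNU1079 and -0.47 in SSP25, a difference of 0.60 ± 0.15 (limma unadjusted p = 0.00909, adjusted p = 0.249). SNHG15 had 0.12 in SNU1079 and -0.28 in SSP25 (difference 0.40 ± 0.14, adjusted p = 0.309), whereas SNHG16 had -0.16 in SNU1079 and 0.18 in SSP25 (difference -0.34 ± 0.11, adjusted p = 0.284). For the mTORi effect 0 members and 0% of all genes were called, with 3 members under an unadjusted p of 0.05 (14.2% of all genes), and for the BETp effect 0 members and 0.00623% of all genes, with 1 member (SNHG6; 12.4% of all genes).

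**Figure D4:**
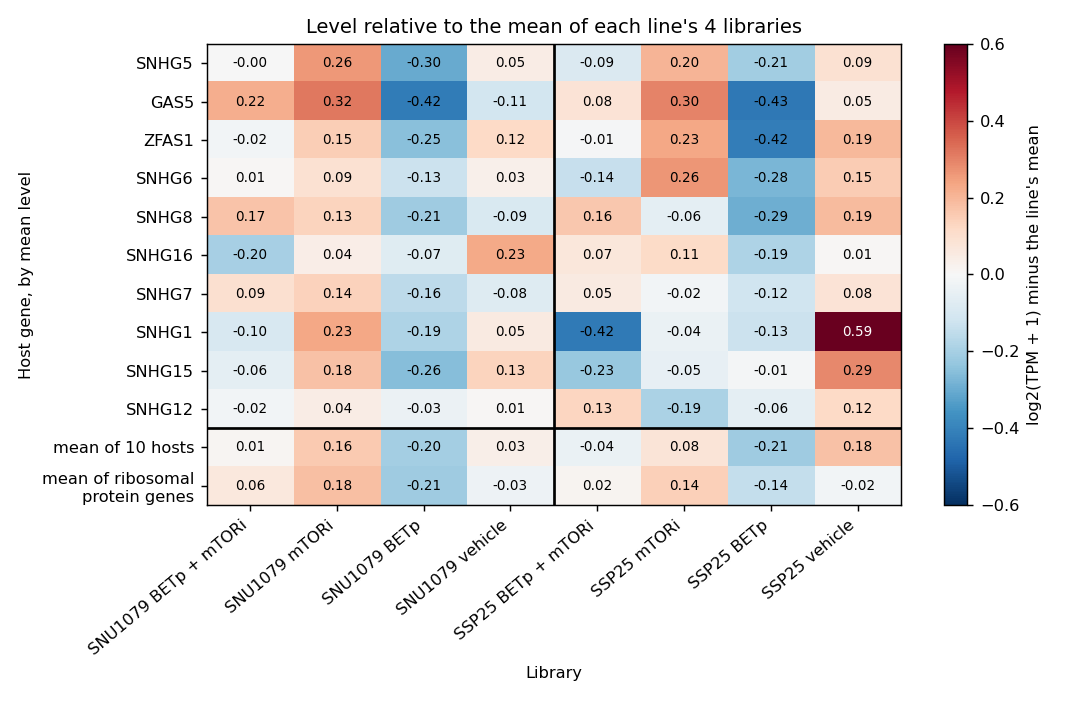
log2(TPM + 1) of each host gene minus its mean over the 4 libraries of the same line, with the mean of the 10 hosts and of the ribosomal protein genes in the lower rows. Columns are the 4 treatments in SNU1079 and then in SSP25. GAS5 is lowest in the BETp libraries (-0.42 and -0.43), and the SSP25 vehicle value of SNHG1 is the highest of all, at 0.59.

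Members did not share a single pattern. Across the 8 libraries, after centering each line, ZFAS1 and SNHG5 followed the mean of the other 9 most closely (Pearson r of 0.906 and 0.895), and SNHG16 and SNHG12 the least (0.404 and 0.202). Among 10633 other genes with a mean of at least 5 TPM, those most like the mean of the members were RPL30 (0.97), SIRT5, RPS7, FBXO25 and IFNGR2. The 5 most like GAS5 were RPL36A (0.98), TMEM101, RPL37, RPL26 and RPL7, 4 of them ribosomal protein genes. These values describe 8 libraries that share their drugs and lines.

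Lists of related genes were counted beside the shares of all genes given above, 1.05% called for mTORi and 1.82% for BETp. At an unadjusted p under 0.05 the shares of all genes were 22% for mTORi and 22.8% for BETp. Of 14 other non-coding hosts 13 were tested, and 0 were called by limma for either drug, with 3 at an unadjusted p under 0.05 for mTORi and 4 for BETp. The medians were -0.161 for mTORi and -0.153 for BETp, and the values nearest to a call were DANCR with mTORi (-0.52 ± 0.12, adjusted p = 0.075) and SNHG17 with BETp (-0.48 ± 0.12, adjusted p = 0.0769). The list of 34 protein-coding hosts left out the ribosomal protein genes, which were counted apart whether or not they host snoRNAs. With mTORi 9 of the 34 were higher and 25 lower, with a median of -0.109. Of the 34, TPT1, encoding the translationally controlled tumor protein and itself a 5′TOP gene, rose by 0.45 ± 0.05 with mTORi (adjusted p = 0.0322). HSPA9 and ATP5B fell by 0.35 and 0.32, in all 3 called (8.82%). For BETp none was called by limma, and 11 had an unadjusted p under 0.05. TPT1 measured 3869.74 and 3852.38 TPM with BETp + mTORi and mTORi, against 2725.04 and 2942.81 TPM with BETp and vehicle, in SNU1079. Its SSP25 values were 3278.49 and 3166.75 TPM with mTORi present, against 2312.14 and 2386.46 TPM without it. EEF1B2, a translation elongation factor gene and host, was 0.34 ± 0.08 higher with mTORi (adjusted p = 0.0686).

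All 14 NMD factor genes tested had negative values with mTORi, between -0.36 in UPF3B and -0.03 in SMG8, with a median of -0.119 near the -0.114 of all genes. Under quantile normalization 6 of the 14 were negative, and none was called by limma (5 at an unadjusted p under 0.05). A list of 15 genes with a transcript known as an NMD target, among them SRSF3, TRA2B and HNRNPDL, was read too. TPM per gene do not separate the isoforms of a gene, so NMD-targeted isoforms were not followed on their own. Of the 15, none was called with mTORi (6 at an unadjusted p under 0.05). GADD45A (-0.43 ± 0.11, adjusted p = 0.0781) and GADD45B (0.33 ± 0.08, adjusted p = 0.077) lay at opposite ends. With BETp, UPP1 fell by 0.49 (adjusted p = 0.0369) and HNRNPDL fell by 0.46 (adjusted p = 0.0369), in all 2 of the 15 (13.3%). At an unadjusted p under 0.05 by limma there were 10 of the 15 with BETp, beside 22.8% of all genes. Of the 15, 12 were lower and 3 higher with BETp, with a median of -0.3, beside -0.272 for the members. Of 17 genes for snoRNP proteins and assembly factors none was called by limma for either drug (5 for mTORi and 5 for BETp at an unadjusted p under 0.05), with medians of -0.139 for mTORi and -0.134 for BETp. GAR1, of the box H/ACA particle, had the lowest value with BETp (-0.36 ± 0.09, adjusted p = 0.0832).

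The mature snoRNAs themselves could not be followed. Of the 37 placed within the members, 31 had a row by symbol or synonym, and 28 of these were listed at 0 TPM in all 8 libraries. SNORD22, in SNHG1, was listed at 40.17 TPM in the SNU1079 mTORi library and 27.86 TPM in the SSP25 vehicle library, and at 0 in the other 6. SNORA61, in SNHG12, was listed at 35.42 TPM in the SNU1079 vehicle library and 9.42 TPM in the SSP25 BETp library, and SNORA17B, in SNHG7, at 14.21 TPM in 1 library. These RNAs are 60 to 134 bases long, and no difference was drawn from them.

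Protein-coding genes of the other strand that start near a member were read alongside, and the libraries were strand-specific. Distances were measured between the outermost GENCODE ends of the genes, not between the starts printed above. They carry no direction, so overlapping starts and starts that point apart were not distinguished. SLC3A2, the heavy chain of amino acid transporters, starts 51 bases from SNHG1 and fell by 0.49 ± 0.07 with mTORi (limma adjusted p = 0.0428), beside -0.16 ± 0.14 for SNHG1. ZNFX1 starts 248 bases from ZFAS1 and had -0.11 ± 0.14 with mTORi and 0.28 ± 0.14 with BETp, beside 0.18 and -0.34 for ZFAS1. ZBTB37 starts 800 bases from GAS5 and had -0.05 ± 0.13 with mTORi, at 0.92 to 2.85 TPM. Neither ZNFX1 nor ZBTB37 passed in either comparison.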

How the data were processed

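Per the labels, strand-specific dUTP libraries were made from total RNA and the submitters' processing notes name GRCh37, DESeq2 and edgeR. The aligner and annotation release were not given in the sources used here. The authors deposited TPM per gene and library, 1 table per line, and these values were used as deposited. TPM keep no read counts, so depth is unknown and no count test was run.

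The 16060 genes that reached 1 TPM in 2 or more of the 8 libraries were tested with limma 3.58.1 in R 4.3.3 on log2(TPM + 1), with trend, two-sided, at an adjusted p of 0.05. Averaged drug effects came from terms for line and each drug (4 residual degrees of freedom), pairwise contrasts and additivity from 4 treatments plus line (3), and line differences from line-by-drug terms (2). In the drug comparisons the lines served as replicates, so p-values measure the spread between 2 lines and departures from additivity, not between cultures. For SNU1079 against SSP25 the lines were the groups, and the 4 libraries of a line, each of another treatment, stood as its replicates. Its p-values measure how far the line difference varied between treatments, not between cultures. The pairing by number is the cell line, which was kept as a block. The code was tested on simulated data. Alternatives covered the pseudocount, filter, scaling, variance model, block and each library left out.

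The members and gene lists were chosen with earlier results of these data known. Genes named were the 10 members, the 5 most alike, the called or furthest genes of each list and near neighbors on the other strand. Sequences and gene names came from RefSeq (GRCh38.p14) and GENCODE 44 on GRCh37.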

Additional observations from a re-analysis of the deposited data

How the results depend on the processing

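The count of members called was 1 for mTORi present against absent and 1 for BETp present against absent. It was 0 for both with a pseudocount of 0.1, no filter, quantile normalization, rescaling without mitochondrial genome transcripts, robust eBayes without trend, the average contrast of the 4-treatment model and every library left out (0 to 0), and 0 for mTORi when rescaled without ribosomal protein genes. Both calls remained with a filter at 5 TPM (GAS5 adjusted p = 0.0311, SNHG5 adjusted p = 0.0334), and the SNHG5 call remained without ribosomal protein genes (adjusted p = 0.0382). Without the cell line as replicate block, 0 members were called in either comparison (adjusted p = 1 for both genes), and 0 of all 16060 genes. In that fit the difference between the lines is part of the residual spread. GAS5 kept its direction in all 17 alternatives for mTORi, and SNHG5 in all 17 for BETp. Changes of filter, variance model, block or average contrast left the log2 difference as it was (0.457 for GAS5, -0.298 for SNHG5). Those alternatives could not have reversed a direction. The count of members that differed between the lines was 8, and 7 to 10 in the alternatives. In the other comparisons it was 0 throughout.

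Counts over all genes moved more: 168 for mTORi and 0 to 483 in the alternatives, 292 for BETp and 0 to 476, 291 for BETp + mTORi against vehicle and 0 to 657. Quantile normalization set the median of all genes to 0 for mTORi, against -0.114 in TPM as deposited, and to 0.001 for BETp + mTORi against vehicle, against -0.19. Of 820 recomputed values of single members, 749 kept direction and side of the threshold and 40 changed sign, none of them called. The 820 include filter, variance and block alternatives, which leave the log2 difference of a member unchanged. Under quantile normalization, SNHG7 was 0.021 for BETp, SNHG12 0.127 and SNHG15 0.073 for mTORi. For mTORi against vehicle it gave SNHG8 0.123, SNHG12 0.005 and SNHG16 0.094, and for BETp + mTORi against vehicle SNHG6 0.059, SNHG12 0.216 and SNHG16 0.045. Rescaled without mitochondrial genome transcripts, SNHG12 was 0.017 for mTORi and 0.065 for BETp + mTORi against vehicle, and SNHG8 0.013 for mTORi against vehicle. Rescaled without ribosomal protein genes, SNHG12 was -0.014 for BETp, 0.025 for mTORi and 0.01 for BETp + mTORi against vehicle, and SNHG8 0.026 for mTORi against vehicle.

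Leaving out 1 library, the ranges that crossed 0 were, for BETp, SNHG8 -0.19 to 0.037 and SNHG12 -0.079 to 0.067, and for mTORi, SNHG12 -0.083 to 0.073 and SNHG16 -0.068 to 0.081. For mTORi against vehicle they were ZFAS1 -0.026 to 0.088, SNHG1 -0.589 to 0.134, SNHG6 -0.031 to 0.199, SNHG7 -0.045 to 0.165, SNHG8 -0.202 to 0.174, SNHG12 -0.291 to 0.02, SNHG15 -0.299 to 0.004 and SNHG16 -0.189 to 0.109. For BETp + mTORi against vehicle they were SNHG7 -0.034 to 0.177, SNHG8 -0.073 to 0.303 and SNHG12 -0.105 to 0.093. With 1 library per line and treatment and no read counts, the direction of these members was not settled.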

Other observations

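A further non-coding snoRNA host, LRRC75A-AS1, which RefSeq lists as a synonym of SNHG29, was not on the lists and was chosen after its values were seen. It measured 981.67, 1104.87, 651.37 and 858.99 TPM in the BETp + mTORi, mTORi, BETp and vehicle libraries of SNU1079, and 1148.78, 1529.16, 912.88 and 1151.94 TPM in those of SSP25, more than SNHG5 in every library. In the limma fit it rose by 0.42 ± 0.06 with mTORi (adjusted p = 0.0428) and fell by 0.33 ± 0.06 with BETp (adjusted p = 0.0446). Both calls were lost when any 1 library was left out, in alternatives chosen after seeing the data, with adjusted p between 0.0837 and 0.16 for mTORi and between 0.0708 and 0.121 for BETp. They were also lost under quantile normalization (adjusted p = 0.12 for mTORi and 0.112 for BETp).

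Of the 26 genes called higher with mTORi by limma, 11 were outside the lists, LRRC75A-AS1 among them. The largest rises were in SCG5 (0.95), GAS6 (0.83), IL18 (0.81) and MT2A (0.73). CTD-2026D20.3 (0.63), TRAPPC6A (0.57) and MT-CO1 (0.45) were called too. Also outside the lists were GLTSCR2 (0.47, adjusted p = 0.0332), whose current RefSeq symbol is NOP53, and EEF1A1 (0.37, adjusted p = 0.0428), a translation elongation factor gene of the 5′TOP class. EEF1A1P5 (0.47, adjusted p = 0.0488) is a processed copy of EEF1A1, and reads of near-identical copies can be shared between them.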
